A study of Arabidopsis thaliana with 12 samples.

Results

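Cysteine-rich receptor-like kinases, the CRK genes, were followed as 1 gene family across 4 genotypes of Arabidopsis thaliana. The family was taken as 41 gene identifiers, of which 40 had a row in both deposited tables, out of 27436 genes in all. CRK33 (AT4G11490) was not analysed here. All 40 measured members had enough counts to be tested. Of these, 30 reached the minimum of 10 counts at the median library size in all 3 wild-type libraries, and each of the other members reached it in at least 3 libraries outside pnet2_abc. The rule used gene identity alone, with no measured value, but the members were chosen with earlier results of these data known.

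Whole seedlings, 7 days old, untreated and of the Col-0 ecotype, were wild type (WT), the double mutants pnet2_ac or pnet2_bc, or the triple mutant pnet2_abc, with 3 libraries each. The mutated genes encode PNET2A, PNET2B and PNET2C, proteins of the plant nuclear membrane, and all plants grew on diluted MS medium with 1% sucrose. The sources used here name neither the alleles nor which locus is A, B or C. Separate growth or harvest of the libraries within a genotype is not stated, so their spread, which every p-value rests on, may be technical.

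A CRK protein carries, outside the cell, repeats of the DUF26 domain with a fixed spacing of cysteines, then a membrane-spanning stretch and a serine/threonine kinase inside the cell. The family is known for transcripts that rise after pathogen attack, salicylic acid or ozone, and some members associate with pattern-recognition receptors and with the oxidative burst. Many members arose by tandem duplication, so close relatives lie next to each other. WRKY transcription factors, which act in defence, bind the W-box, a short DNA element with the core TTGAC.

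Libraries held 65758625 to 115881203 counts, and 3 counts in a library corresponded to 0.0262 to 0.0436 CPM (counts for a TMM-adjusted library of 1000000). That floor covers counting error only. The reference annotates 3 genes with DUF2215, the domain taken here as that of the PNET2 family. In pnet2_abc AT3G49840 was at 2.17 ± 0.127 CPM against 9.36 ± 1.36 in WT and AT5G67610 at 11.2 ± 0.705 against 21.6 ± 2.46, while AT1G28760 was higher, at 47.4 ± 5.995 against 3.97 ± 0.444 (SD, n = 3). In pnet2_bc only AT5G67610 among the 3 was called, at 14.8 ± 0.548 CPM (log2 fold change -0.55, edgeR adjusted p = 0.032), and in pnet2_ac none was, the lowest adjusted p being 0.154. A call here means an adjusted p under 0.05 from edgeR's quasi-likelihood test with Benjamini-Hochberg adjustment over all 23330 tested genes. Comparisons of the 3 mutants with WT share the same WT libraries, and those with pnet2_abc share its libraries.

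The members fell into arrays and lone genes by their place in the TAIR10.1 annotation. Only listed members could form an array, so a lone member is not shown to be a single copy. An array was a run of at least 2 members with at most 5 other protein-coding genes between neighbours. On that rule 34 members lay in 5 arrays and 7 were lone. The largest array, CRK5 to CRK24, put 20 members on chr4:12117491-12191704, a span of 74.2 kb, with 9 on the plus and 11 on the minus strand. CRK36 to CRK40 placed 5 members on chr4:2231717-2292965 (61.2 kb), and CRK30 to CRK34 placed 5, of which 4 were measured, on chr4:6963521-6989793 (26.3 kb). The pairs were CRK28 with CRK29 on chr4:11398857-11405235 and CRK2 with CRK3 on chr1:26584729-26591776. The lone members were CRK25, CRK26, CRK27 and CRK41 on chromosome 4, CRK4 on chromosome 3, CRK42 on chromosome 5 and AT1G70740 on chromosome 1.

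The proteins were 265 (CRK9) to 1043 residues (CRK8) long, with a median of 660, and 26 of the 41 genes had 7 exons. The cysteine spacing C-x8-C-x2-C of DUF26 occurred 2 times in 36 of the predicted proteins, once in CRK24 and CRK27, 3 times in CRK23 and 4 times in CRK17. AT1G70740 held no such spacing and carries no CRK symbol in the reference, so it is named by its identifier throughout. Coding sequences within the largest array were 37.9% to 90.2% identical, with a median of 64.7% over all pairs. Identity here is the number of matching bases over the length of the shorter coding sequence. The highest value is for CRK8 and CRK9, with 3132 and 798 coding bases, so it covers only part of CRK8.

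Near-identical stretches bear on how reads of 150 bases could be assigned. CRK6 and CRK8 share 368 identical coding bases, CRK13 and CRK22 share 309, and CRK39 and CRK40 share 182. Windows of 150 bases in the spliced coding sequence were looked for in the spliced isoforms of members that do not overlap it. They made up 13.7% of CRK6, 7.34% of CRK8, 8.54% of CRK13, 8.72% of CRK22, 1.802% of CRK39 and 1.82% of CRK40, each shared within these pairs, and 0 in the other 35. Gene models overlap by 1190 bases on the same strand for CRK16 and CRK17 and by 470 for CRK28 and CRK29. Counts of those 4 genes are uncertain, because the sources used here do not say how reads in the overlaps were assigned.

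Promoters of 6 members are shown because their genes span the family's range, from CRK40, among the highest genes in WT, to CRK37, with no WT count. The 6 were chosen after their values were seen. Each line gives the 250 bases before the annotated gene start, from RefSeq's annotation of TAIR10.1, 5′ to 3′ on the gene's own strand, and capitals mark the W-box core TTGAC or its reverse complement GTCAA.
CRK6 (chr4:12121119-12121368, plus strand): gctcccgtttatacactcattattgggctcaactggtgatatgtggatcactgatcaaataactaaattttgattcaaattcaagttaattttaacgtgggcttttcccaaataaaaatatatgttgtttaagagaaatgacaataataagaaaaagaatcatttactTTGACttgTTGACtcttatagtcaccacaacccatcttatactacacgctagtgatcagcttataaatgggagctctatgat
CRK7 (chr4:12125414-12125663, plus strand): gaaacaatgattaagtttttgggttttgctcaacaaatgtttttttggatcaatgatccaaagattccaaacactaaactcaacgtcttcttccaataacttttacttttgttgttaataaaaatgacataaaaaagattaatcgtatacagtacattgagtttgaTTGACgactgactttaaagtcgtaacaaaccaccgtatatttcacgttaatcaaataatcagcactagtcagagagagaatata
CRK11 (chr4:12143859-12144108, minus strand): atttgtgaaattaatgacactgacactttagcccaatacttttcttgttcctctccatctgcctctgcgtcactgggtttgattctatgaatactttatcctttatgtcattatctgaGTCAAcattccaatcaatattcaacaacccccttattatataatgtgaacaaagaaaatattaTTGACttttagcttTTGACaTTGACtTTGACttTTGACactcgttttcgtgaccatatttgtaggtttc
CRK37 (chr4:2238120-2238369, plus strand): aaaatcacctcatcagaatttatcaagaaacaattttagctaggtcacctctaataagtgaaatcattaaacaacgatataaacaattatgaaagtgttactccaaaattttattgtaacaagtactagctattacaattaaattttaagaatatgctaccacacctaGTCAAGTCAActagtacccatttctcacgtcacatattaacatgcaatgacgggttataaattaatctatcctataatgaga
CRK39 (chr4:2259248-2259497, plus strand): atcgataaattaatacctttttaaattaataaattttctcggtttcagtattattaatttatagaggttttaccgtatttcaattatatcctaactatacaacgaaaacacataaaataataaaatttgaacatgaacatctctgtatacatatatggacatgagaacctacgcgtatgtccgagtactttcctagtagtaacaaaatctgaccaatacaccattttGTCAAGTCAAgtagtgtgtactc
CRK40 (chr4:2288366-2288615, plus strand): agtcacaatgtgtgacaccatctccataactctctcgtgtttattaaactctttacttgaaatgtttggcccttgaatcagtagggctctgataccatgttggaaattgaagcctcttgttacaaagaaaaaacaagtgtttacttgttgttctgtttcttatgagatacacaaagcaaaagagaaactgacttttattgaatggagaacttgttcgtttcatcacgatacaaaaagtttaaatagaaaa
CRK11 held 6 cores, most of them close together near the gene start. In CRK37 and CRK39 the 2 cores stood side by side in a run of 10 bases. CRK40, the closest relative of CRK39 in the same array, held none. Searched on both strands, TTGAC occurred in 30 of the 41 member promoters (73.2%), against 44.9% of all 27444 promoters of that length. The longer form TTGACT, which contains the core, occurred in 19 members (46.3%) against 19.1% of all, and TTGACC in 9 (21.95%) against 12.2%. The core was present in 24 of 34 array members and 6 of 7 lone members. Neighbouring promoters in an array may share descent, and a match shows the letters in this window, not a bound site.

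Levels in WT differed widely between members. On the deposited TPM scale, which accounts for transcript length, CRK21 led with 30.6 ± 3.19, followed by CRK40 at 25.8 ± 1.03, CRK22 at 22.1 ± 2.02 and CRK18 at 19.2 ± 1.34 (mean ± SD, n = 3). The libraries of CRK21 and CRK40 did not overlap, nor did those of CRK40 and CRK22, whereas CRK22 overlapped CRK18 and CRK18 overlapped CRK42, the fifth at 18.6 ± 3.51. Below CRK29, the eleventh, most neighbours in the order overlapped. In WT 16 members were over 5 TPM, 7 were between 1 and 5, and 17 were under 1. CRK37 was listed at 0 in all 3 WT libraries.

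By its summed level the family was close to WT in both double mutants and stood apart in the triple mutant. Summed over all 40 members, the libraries gave 423, 462 and 420 CPM in WT, 409, 417 and 420 in pnet2_ac, 386, 419 and 426 in pnet2_bc, and 785, 765 and 810 in pnet2_abc. In this sum only the pnet2_abc libraries lay apart from WT. Members at 1 TPM or more numbered 20 to 25 per library in WT, 26 to 28 in pnet2_ac, 22 to 25 in pnet2_bc and 33 to 35 in pnet2_abc. By that count the pnet2_ac libraries also lay above those of WT. WT replicate 1 listed 7 members at 0 counts and each of the other WT libraries 2.

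In pnet2_abc against WT, 27 of the 40 members were called higher, 2 were called lower and 11 were not called. The background was 32.5% higher and 32% lower over all tested genes, 64.5% in either direction. The median log2 fold change of the members was 1.71, against 0.01 over all tested genes. All 3 pnet2_abc libraries lay above all 3 WT libraries for 29 members and below them for 2, where 35.8% and 33.6% of all tested genes did so. Of the 29 calls, 27 were kept under each alternative setting that gave a value, the exceptions being CRK38 and CRK23, both low in every genotype. CRK38 rose from 0.113 to 1.14 CPM (edgeR adjusted p = 0.031), a call lost without WT replicate 1 (0.0656) or 3 (0.0789) or without pnet2_abc replicate 1 (0.0526), 2 (0.053) or 3 (0.0744). CRK23 rose from 0.168 to 0.685 CPM (adjusted p = 0.0441), and that call was lost in 8 of 12 fits that left out 1 library, with an adjusted p of up to 0.231.

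**Figure D1:**
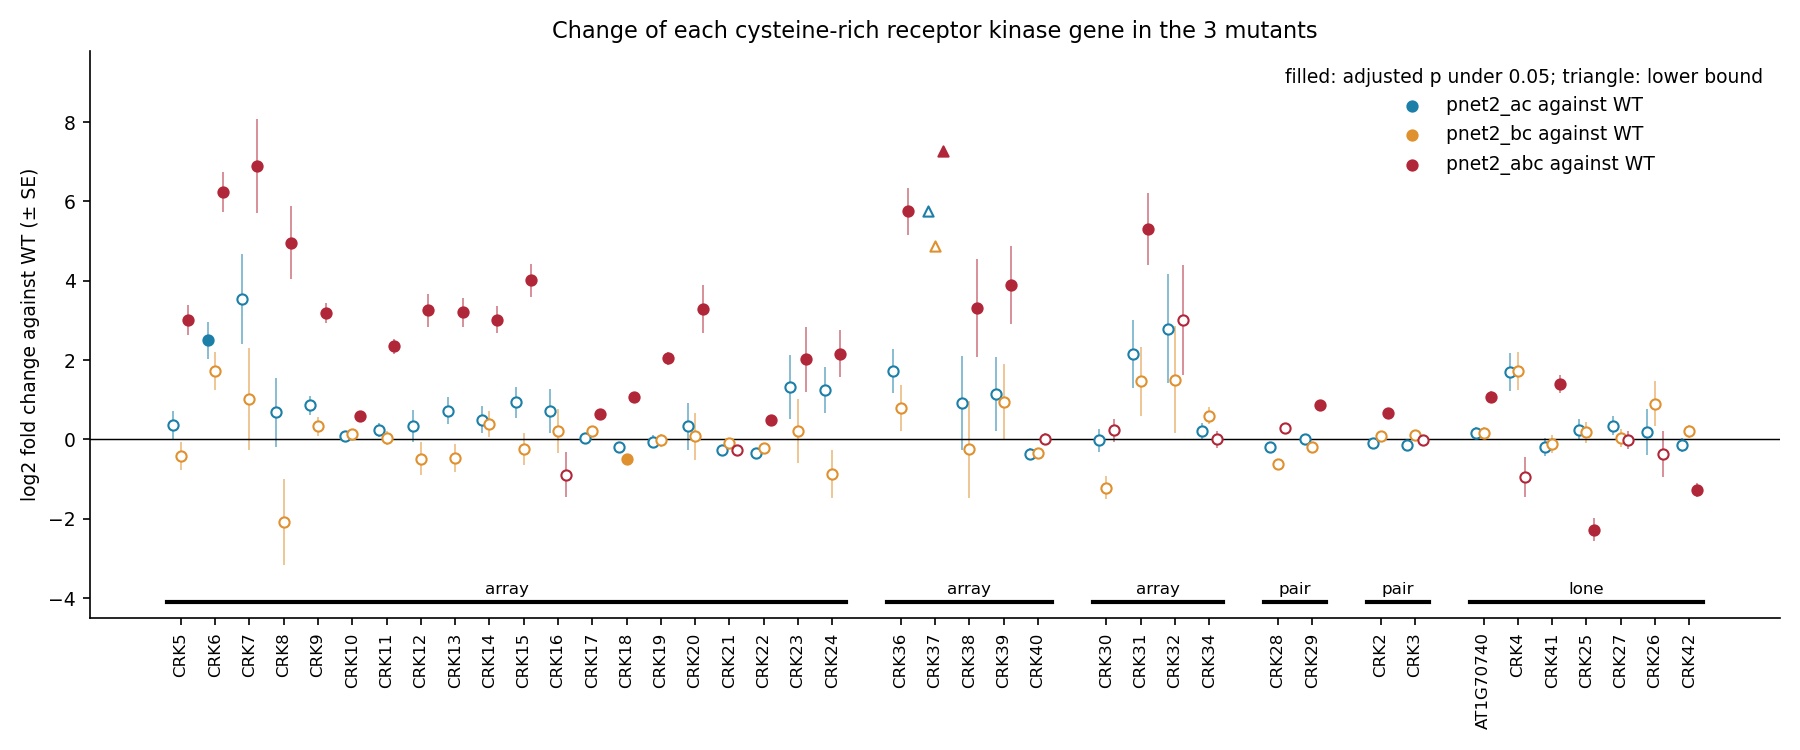
Log2 fold change against WT (vertical axis, ± SE) of each measured CRK gene in pnet2_ac, pnet2_bc and pnet2_abc, in chromosomal order within each array and then the lone genes; filled symbols have an adjusted p under 0.05, and triangles mark CRK37 at its lower bound because WT had no count. Most array genes are far above 0 only in the triple mutant, and the 2 genes called lower, CRK25 and CRK42, are lone.

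By fold change, the 6 largest rises came from members under 1 CPM in WT. In CPM, CRK11 (11.8 to 59.7) and CRK19 (15.3 to 62.7) gained more than any of them. CRK6 (AT4G23140), which together with CRK7 has been tied to protection against extracellular reactive oxygen, stood at 0.368, 0.334 and 0.108 CPM in WT. It reached 2.12, 1.38 and 1.04 in pnet2_ac, 1.27, 0.994 and 0.400 in pnet2_bc, and 17.1, 17.8 and 26.3 in pnet2_abc. The 3 triple-mutant libraries lay above all 9 others, and the mean was 75.5-fold over WT (log2 fold change 6.23 ± 0.50 SE, edgeR adjusted p = 1.47e-07).

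Next to it, CRK7 (AT4G23150) was at 0, 0.160 and 0 CPM in WT, 1.28, 0.225 and 0.304 in pnet2_ac, 0.0811, 0.229 and 0 in pnet2_bc, and 7.70, 5.15 and 5.97 in pnet2_abc. WT and pnet2_bc were at or near the floor, and pnet2_abc overlapped no other genotype. The mean was 118-fold over WT (6.89 ± 1.19, adjusted p = 0.000187). CRK8 (AT4G23160), the third in this row, was at 0, 0.363 and 0.108 CPM in WT, 0.227, 0.106 and 0.420 in pnet2_ac, 0, 0.0510 and 0.0552 in pnet2_bc, and 3.82, 5.53 and 5.27 in pnet2_abc. WT overlapped both double mutants, and pnet2_abc lay above all other libraries, 31.0-fold above WT (4.96 ± 0.92, adjusted p = 0.000341). Part of CRK8 is identical to CRK6, as given above.

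In the array from CRK36 to CRK40, CRK36 (AT4G04490), a kinase known to act on the receptor-associated kinase BIK1, was at 0.210, 0.871 and 0.540 CPM in WT. It was at 2.53, 1.64 and 1.09 in pnet2_ac, 1.68, 0.866 and 0.248 in pnet2_bc, and 25.99, 28.3 and 32.7 in pnet2_abc. The pnet2_abc libraries stood apart from all others and pnet2_ac lay just above WT, and the triple mutant was 53.6-fold above WT (5.75 ± 0.60, adjusted p = 1.78e-06). On the TPM scale CRK36 moved from rank 28 of 40 in WT to rank 10 in pnet2_abc, from 0.342 to 21.3 TPM.

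CRK37 (AT4G04500) had no count in any WT library, 1.36, 0.437 and 0.420 CPM in pnet2_ac, 0.419, 0.777 and 0 in pnet2_bc, and 2.00, 1.86 and 2.53 in pnet2_abc. The pnet2_abc libraries were the highest, with pnet2_ac replicate 1, the deepest library, next. Set against 3 counts over the whole WT group, pnet2_abc was at least 156-fold higher (adjusted p = 0.000427) and pnet2_ac at least 54.1-fold, the latter not called (adjusted p = 0.0524). In pnet2_ac CRK37 was called by DESeq2 (adjusted p = 1.4e-05), without the low-count filter (0.0443), in a fit of the 2 groups alone (0.0319) and without pnet2_bc replicate 3 (0.0105). In pnet2_bc it was at least 29.1-fold higher (edgeR adjusted p = 0.108), and DESeq2 called it (0.000259), as did edgeR without pnet2_bc replicate 3 (0.0156). CRK31 (AT4G11470), in the array from CRK30 to CRK34, was at 0, 0.218 and 0.0675 CPM in WT, 0.245, 0.848 and 0.174 in pnet2_ac, 0.270, 0.153 and 0.359 in pnet2_bc, and 4.35, 4.06 and 2.89 in pnet2_abc. Its first 3 groups overlapped, and pnet2_abc was 39.6-fold above WT (5.31 ± 0.91, adjusted p = 0.00018).

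Members already high in WT moved by smaller ratios. CRK18 (AT4G23260) gave 25.8, 29.9 and 27.8 CPM in WT, 26.6, 23.6 and 23.1 in pnet2_ac, 18.7, 18.5 and 21.9 in pnet2_bc, and 57.8, 56.9 and 61.5 in pnet2_abc. Its WT libraries lay above all of pnet2_bc and below all of pnet2_abc, where it was 2.11-fold higher (1.08 ± 0.09, adjusted p = 2.16e-07). CRK22 (AT4G23300) gave 37.6, 44.0 and 38.5 CPM in WT, 30.2, 30.5 and 33.8 in pnet2_ac, 29.9, 32.2 and 40.9 in pnet2_bc, and 60.9, 45.2 and 62.5 in pnet2_abc. Here pnet2_abc lay above WT with a narrow gap, 1.403-fold (0.49 ± 0.14, adjusted p = 0.00626).

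The 2 highest members of WT were not called. CRK21 (AT4G23290) gave 51.8, 54.0 and 45.7 CPM in WT, 41.7, 43.1 and 41.9 in pnet2_ac, 47.7, 44.7 and 49.5 in pnet2_bc, and 51.2, 35.5 and 38.2 in pnet2_abc. The triple mutant overlapped WT (log2 fold change -0.28 ± 0.12, adjusted p = 0.0508). Its adjusted p was 0.000689 without pnet2_abc replicate 1 (-0.46) and 0.0334 without WT replicate 3 (-0.35). CRK40 (AT4G04570) gave 51.7, 48.6 and 52.6 CPM in WT, 29.7, 45.3 and 44.6 in pnet2_ac, 37.3, 43.9 and 38.9 in pnet2_bc, and 56.4, 44.5 and 53.7 in pnet2_abc. WT and pnet2_abc overlapped (0.01 ± 0.14, adjusted p = 0.935), and both double mutants lay below WT without a call (adjusted p = 0.26 and 0.375).

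Grouped by WT level, which is also the denominator of the ratio, 13 of the 17 members under 1 TPM were called higher, with a median log2 fold change of 3.32. Among the 7 members between 1 and 5 TPM 5 were called higher, with a median of 3.004. Among the 16 over 5 TPM 9 were higher and 2 lower, with a median of 0.54. Over all tested genes, at any level, 32.5% were called higher and 32% lower. The order of levels was different in pnet2_abc, where CRK18 led with 47.0 TPM, followed by CRK11 at 41.01, CRK19 at 39.9 and CRK22 at 36.1. CRK11, described as responsive to oxidative stress and pathogens, had been at rank 14 in WT with 6.95 TPM, and CRK19 at rank 12 with 8.40 TPM.

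**Figure D2:**
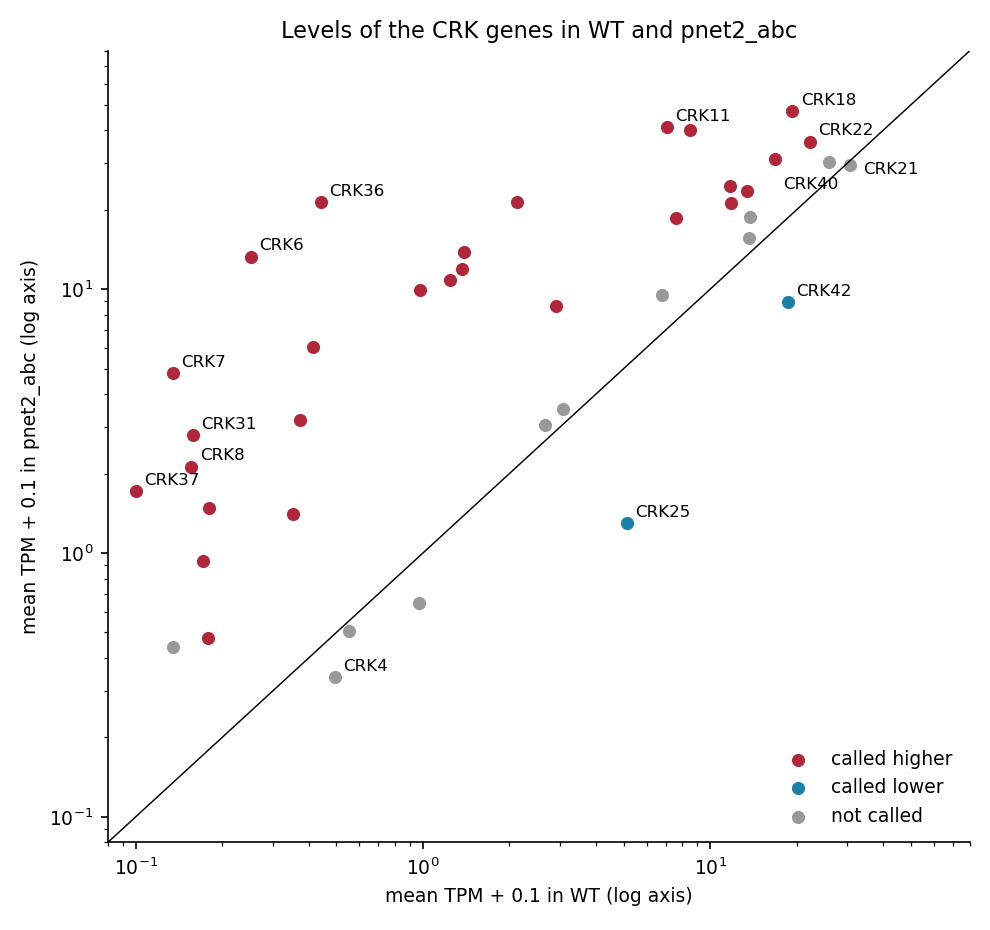
Mean TPM plus 0.1 of each measured CRK gene in WT (horizontal, log axis) and in pnet2_abc (vertical, log axis), 3 libraries each, coloured by the edgeR call; the line marks equal levels. Most genes low in WT lie far above the line. CRK25 and CRK42, called lower, lie below it, as do CRK4, CRK16, CRK21 and CRK26, which were not called.

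Both members called lower were lone genes. CRK25 (AT4G05200) gave 7.21, 8.70 and 6.10 CPM in WT, 9.90, 9.71 and 6.36 in pnet2_ac, 7.49, 10.5 and 6.95 in pnet2_bc, and 1.83, 0.908 and 1.78 in pnet2_abc. The triple mutant lay below all other libraries, 4.87-fold under WT (log2 fold change -2.28 ± 0.29, adjusted p = 1.07e-05). CRK25 overlaps the kinesin gene ATK5 by 492 bases on the opposite strand, and ATK5 fell from 22.9 ± 1.08 to 7.20 ± 1.81 CPM (-1.67, adjusted p = 3.63e-07). The sources used here do not give the strand setting of the counting, so reads from the shared bases cannot be told apart.

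CRK42 (AT5G40380) gave 39.9, 35.7 and 28.5 CPM in WT, 36.7, 26.1 and 31.7 in pnet2_ac, 42.6, 39.9 and 37.5 in pnet2_bc, and 13.0, 18.3 and 11.7 in pnet2_abc. Only pnet2_abc stood apart, 2.42-fold under WT (-1.28 ± 0.17, adjusted p = 2.14e-05), and the gene went from rank 5 to rank 22 in TPM. AT5G40382, which overlaps CRK42 by 130 bases on the opposite strand, had at most 0.0383 CPM in any genotype's mean.

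**Figure D3:**
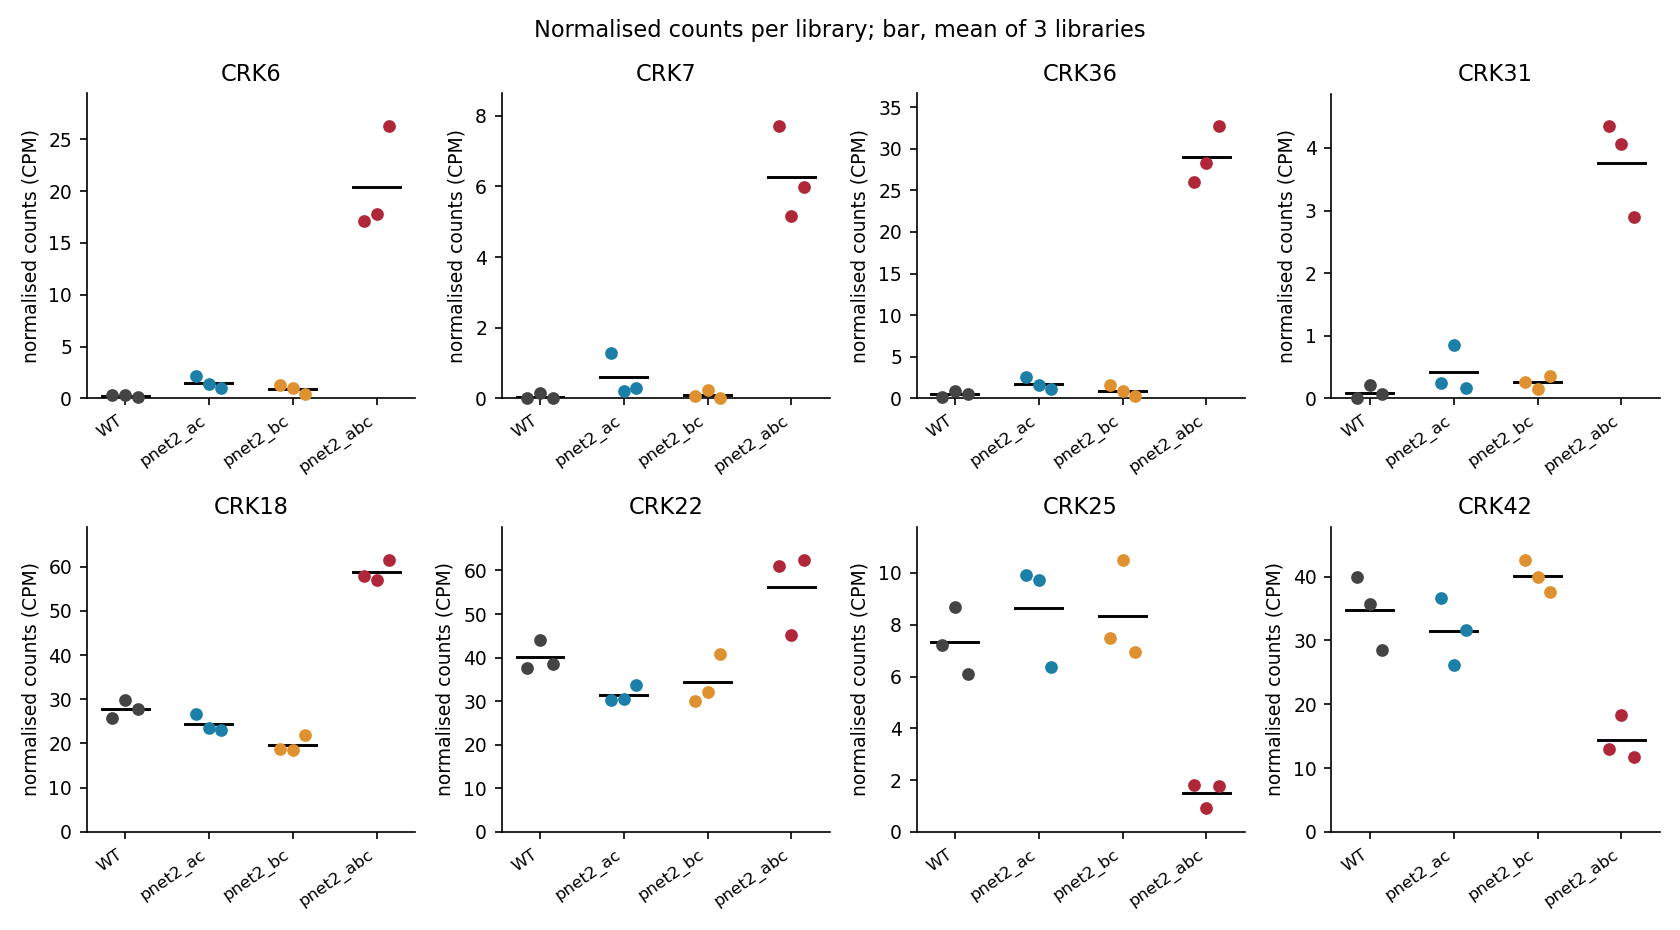
Normalised counts (CPM, vertical axes from 0) of 8 CRK genes in each of the 12 libraries by genotype, with bars at the mean of 3 libraries. CRK6, CRK7, CRK36 and CRK31 sit near 0 outside pnet2_abc, CRK18 and CRK22 rise from a high level, and CRK25 and CRK42 fall.

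Array members and lone members gave different counts in pnet2_abc. Of 33 measured array members, 25 were called higher and 8 were not called, with a median log2 fold change of 2.34. Most of these higher calls came from the largest array, CRK5 to CRK24, and the other arrays were less uniform, as given below. Of 7 lone members, 2 were higher, 2 lower and 3 not called, with a median of -0.36. The higher and lower shares of lone members were near those of all tested genes. The 2 lone risers were AT1G70740, from 10.05 to 21.2 CPM (1.08, adjusted p = 3.73e-05), and CRK41, from 4.47 to 11.8 (1.397, adjusted p = 9.48e-05). As given above, AT1G70740 holds no DUF26 cysteine spacing and carries no CRK symbol. Summed levels of the array members were 373 ± 21.5 CPM in WT and 733 ± 27.6 in pnet2_abc, and those of the lone members 62.1 ± 7.21 and 53.9 ± 4.95. Members of an array share sequence and place and are not replicates, so no test was made between the classes.

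The classes depend on how an array is defined. The background is the same 32.5% higher and 32% lower for each definition. With up to 20 other genes allowed between neighbours, 35 measured members counted as arrayed with 26 higher and a median of 2.15, and the 5 left as lone had a median of -0.95. With runs of at least 3 members required, 29 were arrayed with 23 higher and a median of 3.01, and the 11 lone had 4 higher, 2 lower and a median of -0.01.

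Within the largest array 18 of 20 members were called higher, where 32.5% of all tested genes were, with a median log2 fold change of 2.67. Along the chromosome CRK5 to CRK15 formed an unbroken row of 11 called genes, from 0.60 (CRK10) to 6.89 (CRK7). CRK16 was not called (-0.89 ± 0.57, adjusted p = 0.184), then came 4 called genes, CRK17 to CRK20, then CRK21, then CRK22 to CRK24. Without WT replicate 1, in which CRK16 was at 0.315 CPM against 1.73 and 1.58 in the others, its value was -1.35 (adjusted p = 0.0207). All 9 members on the plus strand were higher, with a median of 3.19, and 9 of 11 on the minus strand, with a median of 2.34. The array summed to 205 ± 16.7 CPM in WT and 483 ± 14.5 in pnet2_abc.

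Named kinases of this array illustrate the spread, and they were chosen after their values were seen. CRK5, whose overexpression has been tied to cell death and defence, rose 8.02-fold from 2.05 to 16.5 CPM (adjusted p = 9.98e-06). CRK13, known for resistance to Pseudomonas when overexpressed, rose 9.22-fold from 2.35 to 21.7 CPM (adjusted p = 4.01e-06). CRK10 rose 1.51-fold from 21.6 to 32.7 CPM (adjusted p = 0.000126).

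The other arrays were less uniform, beside the same 32.5% of all tested genes called higher. In CRK36 to CRK40, 4 of 5 members were higher, with a median of 3.90 and CRK40 as the exception. In CRK30 to CRK34 CRK31 was the 1 called member of 4, CRK32 was at 3.01 ± 1.38 (adjusted p = 0.0718), CRK30 at 0.23 and CRK34 at 0.00. CRK32 had 0.0540 CPM in WT and 0.449 in pnet2_abc, and its adjusted p was 0.0364 by DESeq2, 0.00557 without WT replicate 3 and 0.0423 without pnet2_bc replicate 3. CRK29 was higher (0.87, adjusted p = 3.98e-05) beside CRK28, a partner of the flagellin receptor complex, at 0.28 (adjusted p = 0.069). CRK28 was called higher when libraries were scaled by total counts alone (0.48, adjusted p = 0.00613) or in TPM with a pseudocount of 0.5 (0.48, adjusted p = 0.00623), and without WT replicate 2 (0.39, adjusted p = 0.0257). CRK2, known to phosphorylate the oxidase RBOHD, was higher (0.68, adjusted p = 0.000445) beside CRK3 at -0.02 (adjusted p = 0.908).

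Genes flanking the arrays were examined in the same way. Of the 10 protein-coding genes on each side of each array, 69 were tested, of which 23 were called higher and 18 lower, with a median log2 fold change of 0.00. Around the largest array 4 of 8 tested flanking genes were higher and 2 lower, with a median of 0.64, and the flanks summed to 366 CPM in WT and 754 in pnet2_abc. Around CRK36 to CRK40 4 of 11 were higher and 4 lower, with a median of 0.00 and sums of 1198 and 546 CPM. Around CRK30 to CRK34 4 of 13 were higher and 1 lower, with a median of 0.68 and sums of 522 and 672 CPM. The flanks of CRK28 with CRK29 had a median of -0.16, and those of CRK2 with CRK3 one of -0.01. Medians thus differed between the arrays, and these differences were not tested. One other DUF26 gene lies inside an array, AT4G11521 between CRK30 and CRK34, and it rose from 1.19 to 7.69 CPM (2.69, adjusted p = 0.000653). The share of flanking genes called higher over all arrays was near that of all tested genes given above.

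**Figure D4:**
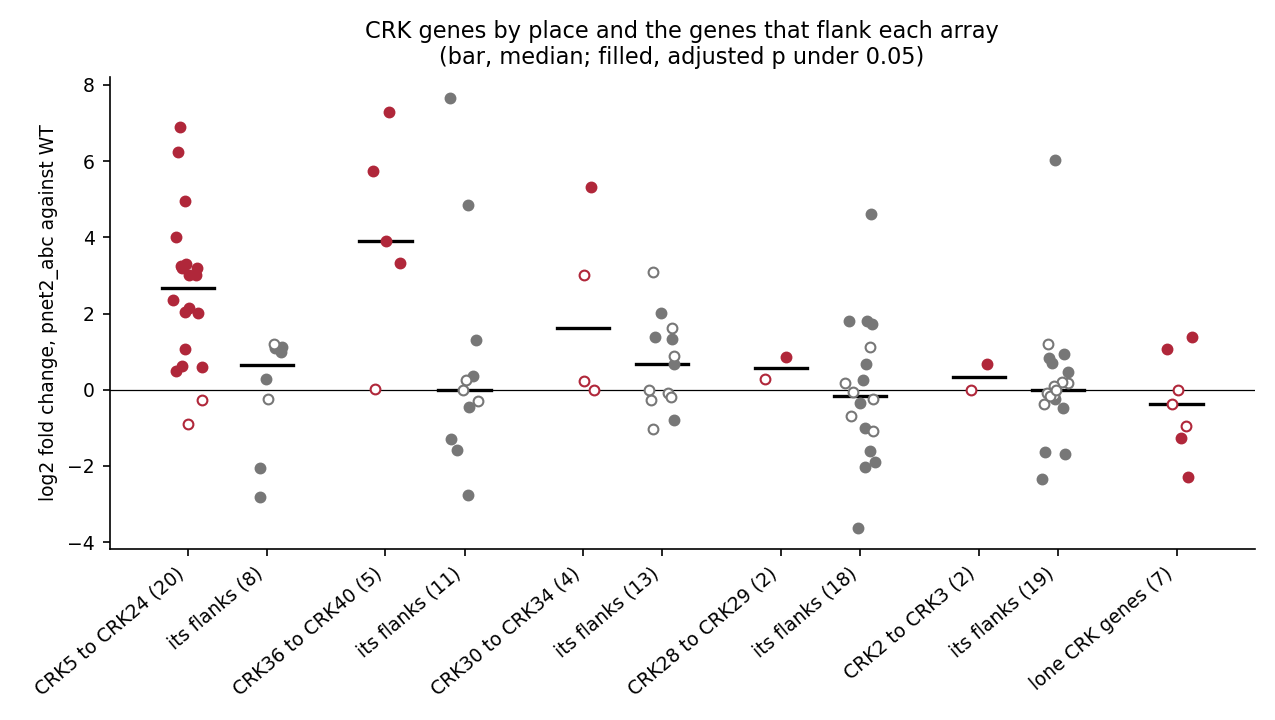
Log2 fold change in pnet2_abc against WT (vertical axis) of the CRK genes of each array, the tested genes among the 10 on each side of it, and the lone CRK genes; each point is a gene, bars are medians, filled points have an adjusted p under 0.05, and numbers in parentheses count genes. CRK37 is drawn at its lower bound. Flanking genes lie on both sides of 0 at every array.

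Closest relatives did not always move alike. CRK39 and CRK40 are 86.7% identical in coding sequence, share the 182 identical bases given above and lie in the same array. CRK39 (AT4G04540) gave 0, 0.320 and 0.0810 CPM in WT and 1.95, 2.21 and 1.83 in pnet2_abc (3.90 ± 0.98, adjusted p = 0.00347), while CRK40 had the values given above. In TPM, CRK40 was at 25.8 in WT and 30.3 in pnet2_abc, and CRK39 at 0.0795 and 1.38. CRK13 and CRK22, 78.9% identical, were at 1.29 and 22.1 TPM in WT and at 13.8 and 36.1 in pnet2_abc. CRK16 and CRK24, 79.5% identical, were at -0.89 without a call and at 2.15 with one (adjusted p = 0.00606). CRK8 with CRK9 (90.2%), CRK19 with CRK20 (89.6%), CRK17 with CRK18 (84.3%) and CRK12 with CRK14 (71.6%) were all called higher.

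Promoter content was set beside these calls as a description. The window of CRK28 lies inside the gene model of CRK29, and that of CRK16 inside CRK17, and both were counted. Of the 27 members called higher in pnet2_abc, 21 held TTGAC, as did both called lower and 6 of the 11 not called. The 29 measured members with a core had a median log2 fold change of 2.34, and the 11 without one had a median of 0.49. Of those 11, 6 were called higher, namely CRK2, CRK12, CRK13, CRK19, CRK22 and AT1G70740. CRK25 and CRK42, called lower, held 2 cores and 1 core. Most members without a core were over 5 TPM in WT, a class with a median of 0.54, and most with a core were below that level. Promoter content and WT level were not separated in this split, and the part of either was not tested.

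The double mutants each had 1 called member. In pnet2_ac against WT it was CRK6, higher (log2 fold change 2.50 ± 0.47, edgeR adjusted p = 0.0274), against a background of 0.45% higher and 1.14% in either direction. Its 3 pnet2_ac libraries lay above its 3 WT libraries, at the values given above. The call was lost without WT replicate 1 (adjusted p = 0.0654), 2 (0.0735) or 3 (0.0919), and without pnet2_ac replicate 1 (0.0784) or 2 (0.0531). In pnet2_bc against WT it was CRK18, lower (-0.50 ± 0.09, adjusted p = 0.0291), where 0.343% were called lower and 0.643% in either direction. This call was lost without WT replicate 2 (adjusted p = 0.116) or 3 (0.0902) and without pnet2_bc replicate 1 (0.135) or 2 (0.127). CRK6 also lay wholly above WT in pnet2_bc, without an edgeR call, while DESeq2 called it higher there (1.71, adjusted p = 0.00697).

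Beyond those calls, 9 members lay wholly above WT in pnet2_ac and 3 wholly below it, where 9.73% and 9.91% of all tested genes did. In pnet2_bc the numbers were 3 above and 5 below, against 8.68% and 8.35%. At an unadjusted p under 0.05, 11 members passed in pnet2_ac and 8 in pnet2_bc, where 14.6% and 11.1% of all tested genes passed. The 11 in pnet2_ac were 8 higher and 3 lower, and the 8 in pnet2_bc were 4 and 4. Out of 40 members, these 11 and 8 and the 9 wholly above WT in pnet2_ac were larger shares than over all tested genes. Array members had a median log2 fold change of 0.36 in pnet2_ac and 0.08 in pnet2_bc, and lone members 0.18 in both. DESeq2 called 4 members in pnet2_ac and 6 in pnet2_bc, and 4.76% and 2.75% of all genes to which it gave an adjusted p.

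CRK4, CRK30 and CRK28 were looked at after their values were seen. CRK4 (AT3G45860), a lone member described as a partner of the flagellin receptor FLS2, gave 0.735, 0.523 and 0.850 CPM in WT, 2.32, 2.62 and 1.91 in pnet2_ac, 3.75, 2.14 and 1.10 in pnet2_bc, and 0.5997, 0.298 and 0.193 in pnet2_abc. Both double mutants lay above WT in all libraries and neither was called (1.70, adjusted p = 0.116, and 1.73, adjusted p = 0.152), while DESeq2 called both (adjusted p = 0.0206 and 0.0256). The triple mutant was lower than pnet2_ac (-2.65, adjusted p = 0.00048) and than pnet2_bc (-2.68, adjusted p = 0.000435). Against WT it was at -0.95 (adjusted p = 0.112), and at -1.52 without pnet2_abc replicate 1 (adjusted p = 0.0264).

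CRK30 (AT4G11460) gave 19.4, 21.96 and 24.5 CPM in WT, 15.5, 25.8 and 23.6 in pnet2_ac, 5.25, 10.7 and 12.5 in pnet2_bc, and 32.2, 17.1 and 28.04 in pnet2_abc. The pnet2_bc libraries lay below all others, without a call against WT (-1.21 ± 0.30, adjusted p = 0.0967, and 0.0283 by DESeq2) and with one against pnet2_abc (1.45 higher in pnet2_abc, adjusted p = 0.000831). CRK28 (AT4G21400) gave 11.7, 13.7 and 10.4 CPM in WT, 9.59, 9.52 and 12.02 in pnet2_ac, 8.17, 7.81 and 7.22 in pnet2_bc, and 15.1, 14.0 and 14.4 in pnet2_abc. Its pnet2_bc libraries were the lowest and its pnet2_abc libraries the highest, and pnet2_bc was at -0.62 ± 0.13 against WT (adjusted p = 0.0542). CRK28 was called in pnet2_bc by DESeq2 (adjusted p = 0.0015), with a mean of at least 1 CPM required (0.0482) and without pnet2_ac replicate 3 (0.0458).

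**Figure D5:**
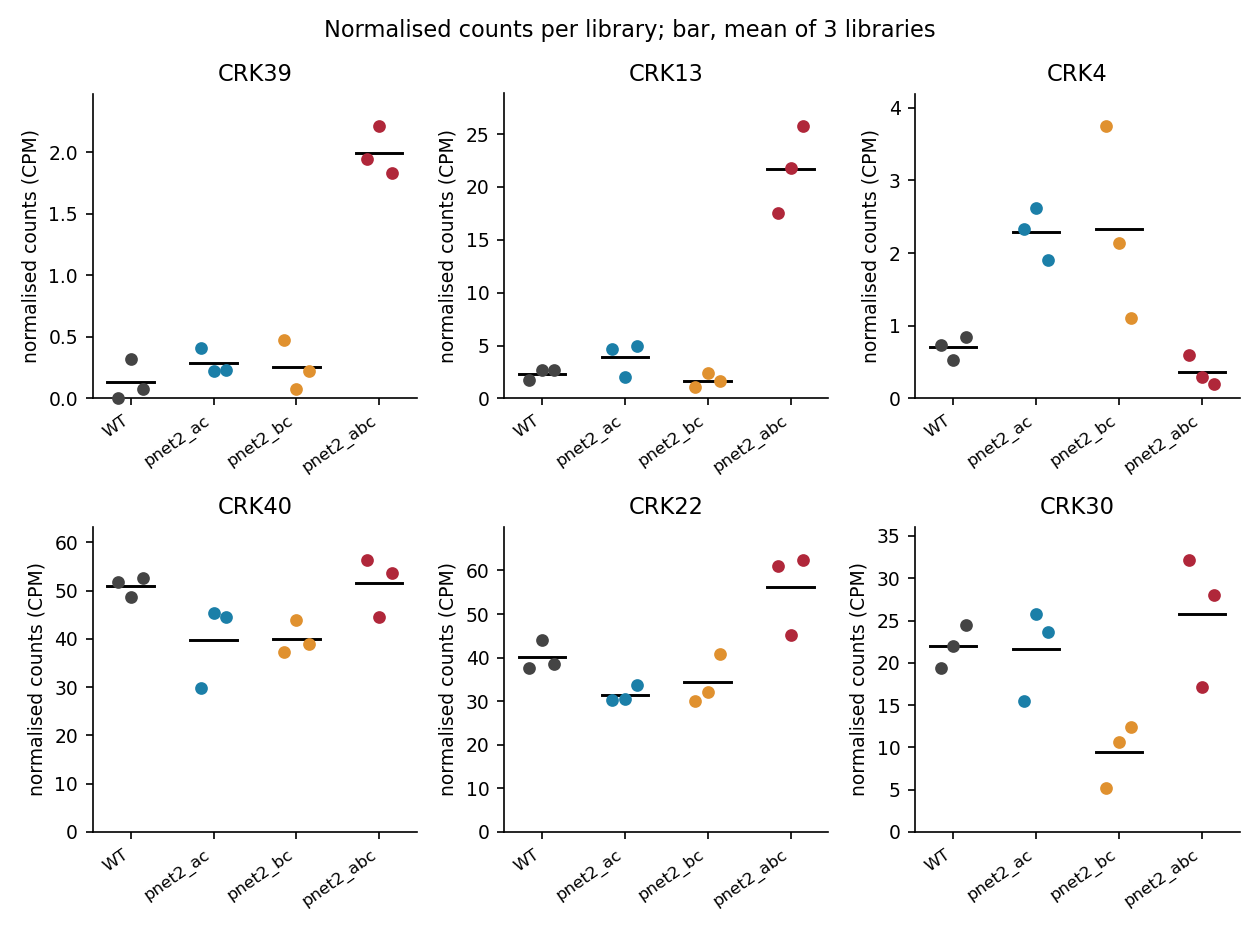
Normalised counts (CPM, vertical axes from 0) of 6 CRK genes in each of the 12 libraries by genotype, with bars at the mean of 3 libraries. CRK39 and CRK40, and CRK13 and CRK22, are pairs of close relatives at very different levels; CRK4 is higher in both double mutants than in pnet2_abc, and CRK30 is lowest in pnet2_bc.

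Set against the double mutants, the triple mutant gave similar counts to those against WT, with shared pnet2_abc libraries. Against pnet2_ac, 25 members were called higher and 4 lower, against a background of 30.7% and 32.2% (62.9% in either direction). The 4 lower were CRK4, CRK25, CRK42 and CRK16. Against pnet2_bc, 28 were higher and 4 lower, against 31.8% and 32.3% (64.1% in either direction), and the 4 lower were CRK4, CRK25, CRK42 and CRK34. CRK16 against pnet2_ac (-1.61, adjusted p = 0.0249) lost its call without pnet2_ac replicate 2 (0.0561) or 3 (0.0559) and without pnet2_abc replicate 2 (0.0846) or 3 (0.0825). CRK34 against pnet2_bc (-0.59, adjusted p = 0.026) lost its call under scaling by total counts alone (0.0946), in the 3 TPM fits (0.135 to 0.174), and without pnet2_bc replicate 2 (0.161) or pnet2_abc replicate 1 (0.0738). Some higher calls were also lost. Against pnet2_ac, CRK39 lost its call without pnet2_ac replicate 2 (0.0538) or 3 (0.0571). CRK40 lost its call against pnet2_ac in a fit of the 2 groups alone (0.0761) and in 3 fits without 1 library (0.0922 to 0.138). Against pnet2_bc, CRK40 lost it in 4 such fits (0.0951 to 0.13) and CRK38 in 4 (0.0552 to 0.077). Between pnet2_ac and pnet2_bc edgeR called 0 of 40 members (0.257% of all tested genes), with 10 at an unadjusted p under 0.05 (10.9% of all) and 3 called by DESeq2 (2.23%). In that comparison 9 members lay wholly higher in pnet2_ac and 5 wholly lower, where 8.9% and 9.24% of all tested genes did.

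Other genes of the pathway were taken from lists of textbook genes. The background in pnet2_abc against WT was 32.5% of all tested genes called higher and 32% called lower. Of 15 pattern receptors and genes of the oxidative burst, 14 were called higher in pnet2_abc against WT and 1 was not called, with a median log2 fold change of 1.85. The 2 largest changes were in FLS2, the flagellin receptor, from 3.37 to 103 CPM (4.93, adjusted p = 1.04e-08), and LYK5, a chitin receptor, from 3.07 to 23.4 CPM (2.93, adjusted p = 8.99e-09). Of 19 genes of salicylic acid and systemic immunity, 15 were higher and 2 lower, with a median of 1.87. Here the marker PR1 went from 0.737 to 171 CPM (7.88, adjusted p = 0.00142) and the regulator SARD1 from 0.993 to 58.0 CPM (5.87, adjusted p = 2.18e-08). FLS2 was at 4.03 ± 1.16 CPM in pnet2_ac (adjusted p = 0.773) and at 2.16 ± 0.981 CPM in pnet2_bc (adjusted p = 0.442), against 3.37 ± 0.321 in WT. PR1 was at 5.49 ± 9.03 CPM in pnet2_ac (adjusted p = 0.422) and at 5.90 ± 8.81 in pnet2_bc (adjusted p = 0.539), against 0.737 ± 0.862 in WT. No gene of the 2 lists was called in a double mutant.

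DUF26 genes not among the listed members were set beside the same background of 32.5% higher and 32% lower. Of the 8 plasmodesmata-located DUF26 proteins (PDLP), 1 was higher and 4 lower in pnet2_abc, with a median of -0.75. PDLP1 rose from 1.22 to 8.97 CPM (2.87, adjusted p = 4.65e-05) and PDLP2 fell from 29.998 to 12.1 CPM (-1.31, adjusted p = 4.11e-07). Of 11 other DUF26 genes tested, 2 were higher and 2 lower, with a median of 0.36. They came from a list drawn by annotation text. That list is mixed, with genes annotated as receptor kinases, such as RKF2 and AT4G28670, and a gene named sks3. The largest changes there were in AT4G11521, given above, and AT5G48540, from 21.3 to 43.4 CPM (1.03, adjusted p = 1.75e-05).

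Markers of tissues were read in the same libraries. The 5 shoot markers were all called lower in pnet2_abc, with a summed level of 40141 to 45115 CPM in WT and 10142 to 10818 in pnet2_abc. The 2 largest falls were in LHCA1 (-2.67, adjusted p = 3.19e-11) and RBCS3B (-2.45, adjusted p = 2.13e-11). The 7 root markers summed to 26.2 to 42.9 CPM in WT and 22.9 to 29.0 in pnet2_abc, ranges that overlap, with RHD6 higher (0.69, adjusted p = 0.0499), CASP1 lower (-0.78, adjusted p = 0.00842) and 5 not called. The 4 mature seed markers summed to 0 to 0.486 and 0.668 to 2.18 CPM, with 2 of them tested and neither called (CRU1, adjusted p = 0.291, and OLEO1, 0.44), and SESA1 and CRU3 were at 0 in WT. The part of tissue composition in the CRK values was not tested, and in whole seedlings fewer cells of a type and less RNA per cell cannot be told apart.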

How the data were processed

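Messenger RNA was sequenced from whole seedlings of 4 genotypes, 3 libraries each, with groups and replicate numbers taken from the sample titles. The counts in the first deposited table are whole numbers of reads for each gene with no normalization. HISAT2 2.0.4, HTSeq 0.6.1p1 and the build TAIR10 are named in the submitters' processing notes. The sources used here give neither their roles nor the strand setting, although the libraries were strand-specific per the labels' protocols. The deposited TPM table was made with kallisto, per its file name, and each library sums to 1000000.

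In R 4.3.3, edgeR 4.0.16 was run on the counts with filterByExpr and TMM scaling. All 12 libraries entered 1 quasi-likelihood fit with genotype as the term (8 residual degrees of freedom), followed by glmQLFTest and Benjamini-Hochberg adjustment over all 23330 tested genes. The scripts were tested on simulated data. Within genotypes, chi-square divided by its degrees of freedom was 31.2 to 48.9 between libraries, so each counted as 1 replicate. Alternatives used DESeq2 1.42.0, limma 3.58.1 on log2(TPM + 0.5) or log2(TPM + 0.1), other scalings and filters, a replicate term, and each library left out in turn. Fold changes in TPM are on the log2(value + pseudocount) scale, which understates changes of low genes.

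Gene names, places, overlaps and sequences came from RefSeq's annotation of TAIR10.1, joined by gene identifier alone. Values of every library were given for members called in a double mutant, the 6 largest rises and the falls in pnet2_abc, the 4 highest in WT and those with no WT count, and from each list the 2 called genes with the largest change were named. Members, lists and the naming rule were chosen with earlier results of these data known.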

Additional observations from a re-analysis of the deposited data

How the results depend on the processing

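Under 22 alternative settings the direction of no called CRK gene was reversed. In pnet2_abc against WT the number of called members ran from 27 to 30 when each library was left out in turn, against 29 as reported, from 27 to 30 against 29 for pnet2_abc with pnet2_ac, and from 30 to 33 against 32 with pnet2_bc. The single calls in the double mutants were less stable. For pnet2_ac against WT the count was 1 as reported (1.14% of all tested genes), 4 with DESeq2 (4.76%), 2 without the low-count filter (1.02%), 0 in TPM with a pseudocount of 0.5 (1.69%, or 0.59% without the filter), 0 without WT replicate 1 and pnet2_ac replicate 2 together (0.0718%), and 0 to 2 with 1 library left out (0.248% to 1.24%). It gained CRK37 without pnet2_bc replicate 3 (adjusted p = 0.0105) and CRK9 without WT replicate 2 (0.0268). For pnet2_bc against WT it was 1 as reported (0.643%), 6 with DESeq2 (2.75%), 2 with a mean of at least 1 CPM (0.848%), 0 in each of the 3 TPM fits (0.299% to 0.635%), 0 without both of those libraries (0.283%), and 0 to 2 with 1 left out (0.122% to 0.84%), gaining CRK37 without pnet2_bc replicate 3 (0.0156) and CRK28 without pnet2_ac replicate 3 (0.0458). Between the double mutants DESeq2 called 3 (2.23%), and the count was 0 with any 1 library left out.

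The median log2 fold change of array members, 2.34 as reported, was 2.54 with library size alone, 2.05 with a mean of at least 1 CPM, 2.07 in TPM with a pseudocount of 0.5, 1.27 in TPM without a filter, 2.15 with at most 20 genes between neighbours, 3.01 with at least 3 members, and 2.32 to 2.47 with 1 library left out. For lone members it was -0.95 with at most 20 genes between, and -0.74 to -0.05 with 1 left out. For flanking genes it was 0.19 with library size alone, 0.15 with at least 1 CPM, 0.19, 0.22 and 0.14 in the 3 TPM fits, 0.10 without both libraries, -0.077 with 5 genes on each side, and -0.029 to 0.14 with 1 left out. Library size alone moved the median of all genes in pnet2_abc to 0.20 and the share of its calls that were higher from 50.4% to 60.2%, from 39.5% to 67.6% in pnet2_ac and from 46.7% to 61.0% in pnet2_bc.

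Of the lists, salicylic acid and systemic immunity had medians of 2.12 in TPM with a pseudocount of 0.1 and 1.63 without both libraries (1.62 to 2.21 with 1 left out), and the pattern receptors 1.72 to 1.94. The PDLP list was at -0.44, -0.53 and -0.44 in TPM (-0.84 to -0.63 with 1 left out). Shoot markers were at -1.996 with library size alone and -1.98 in each TPM fit (-2.24 to -2.12). Root markers were at -0.21 with library size alone and -0.19, -0.21 and -0.19 in TPM (-0.50 to -0.11). The 2 tested mature seed markers were at 3.81 with DESeq2 and 4.12 without the filter (1.00 to 6.79). Other DUF26 genes were at -0.19 without both libraries (-0.19 to 0.51 with 1 left out). The cause of these changes was not tested.

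Same-numbered libraries did not deviate together (0 of 18 pairs had a correlation over 0.1, range -0.028 to 0.072), so the main fit used no pairing by number. These correlations cannot show whether same-numbered libraries were grown or harvested together. With a replicate block the flanking genes had a median of 0.10, CRK38 (adjusted p = 0.0654) and CRK23 (0.116) lost their calls and CRK21 gained one (0.0459). Members under 1 TPM rest on few counts, and at that depth small differences between WT and the double mutants could not be resolved.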
